A study of Rattus norvegicus with 3 samples.

Results

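Choroid plexus epithelium and ciliated ependyma, the cell layers that face the cerebrospinal fluid, were followed through 8 of the 14217 genes named on the arrays. Ttr, Prlr, Sostdc1, Kl, Enpp2 and Aqp1 are genes of the choroid plexus, and Foxj1 and Dynlrb2 are genes of ciliated cells. The 8 genes were chosen with earlier results of these data known. Their probe sets were taken by symbol: a probe set belonged to a gene if that was its only symbol in the platform annotation. This gave 11 probe sets, and the brightest over the 3 arrays stood for the gene. The series holds RNA of rat brainstem on 3 Affymetrix arrays: Sham, TBI (traumatic brain injury) and Hand Acu (hand acupuncture) have 1 array each, all from 1 h after modelling. The design text states 5 animals and mixing of their samples, which is read here as 1 pool of RNA per group. The protocol for the tissue also names injured cortex, which was not analysed here. The labels give neither the strain, age and sex of the rats nor whether the acupuncture rats were injured, and they do not name the needle sites. With 1 array per group there was no replicate, so no test was run, no difference has an error of its own, and animal-to-animal spread is not visible.

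The choroid plexus is a folded epithelium in the ventricles that secretes cerebrospinal fluid and supplies it with carrier proteins, among them transthyretin. The ependyma lines the ventricles, and its tufts of motile cilia, built under the control of the transcription factor Foxj1 together with RFX factors, move the fluid along. The fourth ventricle lies on the dorsal side of the brainstem, so a brainstem sample can hold both tissues.

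Promoter windows of 300 bases, from 250 before to 50 after an annotated transcript start, were taken from RefSeq (assembly GRCr8), which held them for 5 of the 8 genes: Ttr, Prlr, Kl, Aqp1 and Dynlrb2. For Ttr, Dynlrb2 and Prlr every window lies inside the outer bounds of the gene in the same assembly (from 12216684, 61428782 and 60861391). Each of these windows therefore surrounds a start other than the outermost one. For Foxj1, Sostdc1 and Enpp2 no window was held. Both strands were searched for the X-box, the element bound by RFX factors, in the forms GTNNCCNGNAAC, GTNNCCNNGNAAC, GTNNCCNNNGNAAC and GTNNCCNNNNGNAAC, which do not differ except in the spacer, and for the forkhead element TGTTTAC. The X-box forms were written after the Dynlrb2 window had been read, so a match there is a description and cannot be weighed against the share over all windows. Other spellings of either element were not searched, so a window without a match can still hold a site spelled otherwise. Of 33469 windows of all genes, 5.09% held an X-box and 3.78% the forkhead element. Dynlrb2 held 1 X-box, GTTTCCTAGCAAC, which begins 30 bases before the start of its window's transcript, and neither element was found in the windows of the other 4 genes. The windows of Dynlrb2 (chr19:61428830-61429129, + strand) and Ttr (chr18:12218508-12218807, + strand) are shown as those of the ciliary gene with a match and the leading choroid plexus gene. Both windows of Prlr (chr2:60861515-60861814 and chr2:60909409-60909708, + strand) are shown because its 3 probe sets differed in order over the arrays and the gene has more than 1 annotated start. The Prlr starts are numbered by these windows alone. Capitals mark the X-box, and everything else is in lower case.
Dynlrb2: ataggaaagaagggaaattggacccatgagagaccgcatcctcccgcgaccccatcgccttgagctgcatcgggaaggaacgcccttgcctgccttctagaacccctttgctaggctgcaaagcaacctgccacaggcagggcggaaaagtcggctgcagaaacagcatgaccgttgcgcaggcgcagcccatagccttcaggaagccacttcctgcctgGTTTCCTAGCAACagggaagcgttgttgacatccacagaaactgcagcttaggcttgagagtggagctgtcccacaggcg
Ttr: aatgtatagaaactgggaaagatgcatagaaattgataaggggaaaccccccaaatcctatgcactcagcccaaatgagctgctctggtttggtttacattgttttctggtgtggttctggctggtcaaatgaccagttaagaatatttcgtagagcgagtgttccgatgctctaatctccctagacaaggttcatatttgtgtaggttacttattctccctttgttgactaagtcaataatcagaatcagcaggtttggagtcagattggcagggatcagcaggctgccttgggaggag
Prlr, first start: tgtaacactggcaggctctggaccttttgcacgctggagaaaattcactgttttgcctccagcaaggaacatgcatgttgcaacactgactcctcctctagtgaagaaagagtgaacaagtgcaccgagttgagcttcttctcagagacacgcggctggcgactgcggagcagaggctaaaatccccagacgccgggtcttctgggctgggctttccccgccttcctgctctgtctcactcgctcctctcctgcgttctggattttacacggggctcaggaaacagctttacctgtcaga
Prlr, second start: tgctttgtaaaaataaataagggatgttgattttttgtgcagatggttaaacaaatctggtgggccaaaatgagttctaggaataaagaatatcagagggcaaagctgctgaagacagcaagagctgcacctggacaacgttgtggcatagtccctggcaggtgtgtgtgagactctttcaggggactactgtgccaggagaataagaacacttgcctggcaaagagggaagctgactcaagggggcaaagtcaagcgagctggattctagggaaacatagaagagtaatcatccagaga

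Levels are log2 signals of a probe set and are compared between arrays, not between genes. The median of all probe sets other than controls, 7.44, served as a floor, because dim signals scatter widely between arrays. TBI minus Sham had an SD of 1.76 over the dimmest decile of probe sets and of 0.14 over the brightest. Of the 8 genes, 7 lay above the floor and Kl lay below. As a yardstick for a single gene, the SD of the same difference over the 1000 probe sets nearest in signal is given; it spans unlike genes of 1 pair of arrays, so it is not replicate error. The arrays had the same scaling, with a median signal of 174 to 175, while the 3' probe set of beta-actin exceeded the 5' one, a gap that widens in broken RNA, 5.58 times on Sham, 6.37 times on TBI and 6.69 times on Hand Acu. For Gapdh this lay between 1.20 times, on TBI, and 1.28 times, on Hand Acu. Over the 9241 genes above the floor the median difference was between −0.002 and 0.004 in all 3 comparisons. Because the 3 comparisons share arrays, their values are given side by side and no relation between them is drawn.

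Some markers of both tissues lay above the floor, though many lay near background. Over the whole series 9241 of 14217 genes were above it, a larger share than in either of the lists of further genes. Of 37 further choroid plexus genes on the arrays 18 were above the floor, among them Folr1, the folate receptor that carries folate into the fluid, and Otx2, a homeobox factor of the choroid plexus. The 19 below it included Kcnj13, a potassium channel of the epithelium, at 6.73, 6.61 and 6.69 on the Sham, TBI and Hand Acu arrays. Of 40 further genes of motile cilia 11 were above the floor. Several genes of both lists are not exclusive to these tissues, and Enpp2 is also made by oligodendrocytes. Of 8 brainstem and hindbrain neuron genes, listed for the labelled tissue, 6 were above the floor, such as Slc6a4, the serotonin transporter, at 8.16, 8.64 and 8.50. Hoxa5, with the widest range of these, read 7.35, 8.57 and 8.34, below the floor on Sham. The genes below the floor were Slc6a5, at 3.14, 3.02 and 2.11, and Dbh, at 5.64, 6.25 and 6.37. Most genes of the whole series were above the floor too, so the count of 6 of 8 cannot check the labelled tissue. In pooled tissue, fewer cells of a type and less RNA per cell cannot be told apart.

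Of the 5 choroid plexus genes above the floor, 4 were lowest on the Hand Acu array (32% of all genes above the floor were lowest there), and the exception was Aqp1. Both ciliary genes were lowest on the Sham array, where 36.3% of all genes were lowest. Foxj1 and Dynlrb2 were thus higher on TBI and on Hand Acu than on Sham. In all, 6 of 7 genes were higher on TBI than on Sham (51% of all genes), and 5 of 7 were lower on Hand Acu than on TBI (50.7%). Against Sham, 4 of 7 were lower on Hand Acu (49%).

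**Figure D1:**
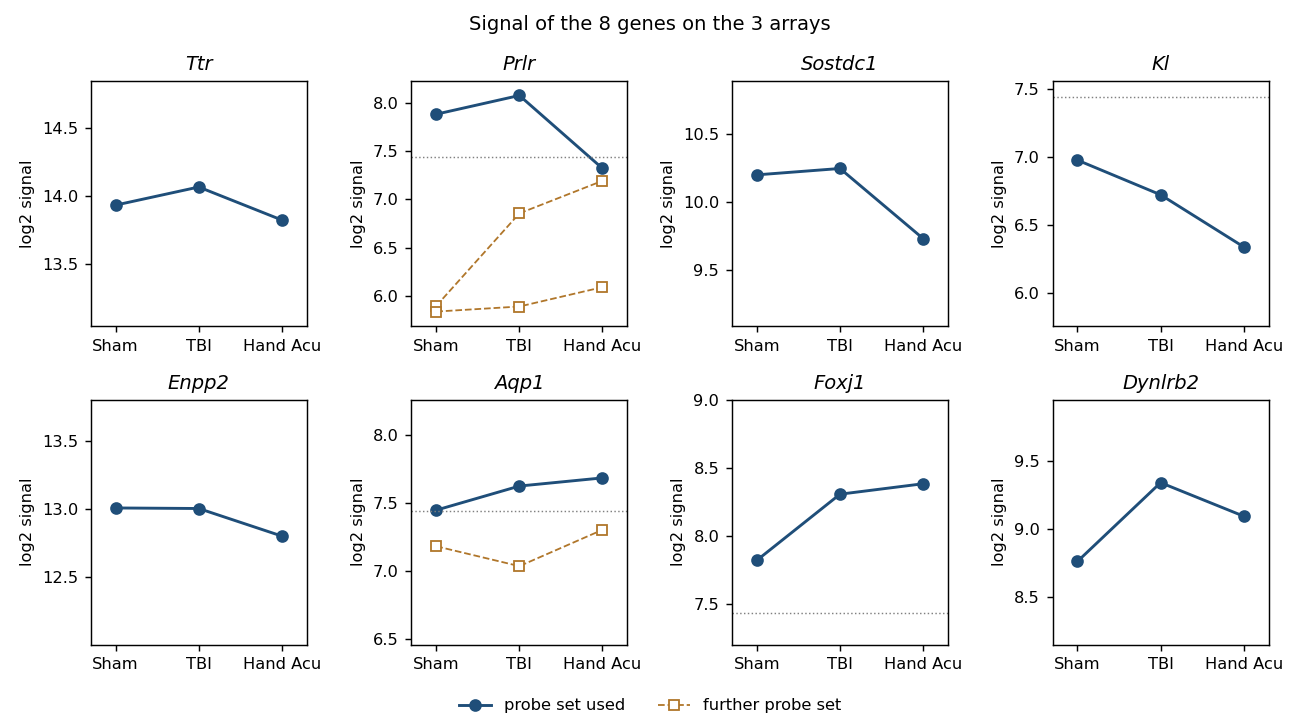
Log2 signal (vertical axis) on the Sham, TBI and Hand Acu arrays for each of the 8 genes; filled circles are the probe set used, open squares further probe sets, and the dotted line is the floor of 7.44. Ttr, Sostdc1, Kl, Enpp2 and the probe set used for Prlr are lowest on Hand Acu, and Foxj1 and Dynlrb2 are lowest on Sham. The further Prlr probe sets are highest on Hand Acu.

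Ttr encodes transthyretin, which binds thyroxine and, with retinol-binding protein, retinol. Its log2 signal was 13.93 on Sham, 14.07 on TBI and 13.82 on Hand Acu (15656, 17168 and 14509 in signal units). It was highest on TBI and lowest on Hand Acu. The difference was 0.13 for TBI minus Sham (SD over probe sets of like signal 0.12), −0.24 for Hand Acu minus TBI (SD 0.09) and −0.11 for Hand Acu minus Sham (SD 0.11). Quantile normalization brought the first to 0.03 and the second to −0.13. One further probe set lists Ttr together with Mt1f and Mt1, metallothionein genes, and was not used because it has several symbols.

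Sostdc1 encodes a secreted antagonist of BMP and Wnt signals. It read 10.20 on Sham, 10.25 on TBI and 9.73 on Hand Acu, so that Sham and TBI lay close together and Hand Acu apart. Hand Acu minus TBI was −0.51 (1.43-fold lower, SD 0.15), which placed it 92nd from the lowest among 9241 genes. Hand Acu minus Sham was −0.47 (1.38-fold lower, SD 0.18) and TBI minus Sham 0.05.

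Enpp2 encodes autotaxin, the secreted enzyme that makes lysophosphatidic acid. It read 13.01 on Sham, 13.00 on TBI and 12.80 on Hand Acu. As with Sostdc1, Sham and TBI lay close together, with a TBI minus Sham difference of −0.0040, and Hand Acu stood lower. Hand Acu minus TBI was −0.20 (SD 0.09) and Hand Acu minus Sham −0.21 (SD 0.12). The lysophosphatidic acid receptor gene Lpar1 read 11.76, 11.64 and 11.71 in the same order, a range of 0.12.

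Prlr, the receptor of prolactin, had the largest difference among the 8 genes and the least certain one. The probe set used read 7.89 on Sham, 8.08 on TBI and 7.32 on Hand Acu, the last of these below the floor. Hand Acu minus TBI was −0.76 (1.69-fold lower, SD 0.27), 18th from the lowest among 9241 genes, and Hand Acu minus Sham was −0.56 (1.48-fold lower, SD 0.31). A second probe set, below the floor, read 5.89, 6.86 and 7.19, so that Hand Acu was the highest array there (0.34 over TBI and 1.30 over Sham). The third read 5.83, 5.89 and 6.09, again highest on Hand Acu. The 3 probe sets therefore gave no common direction for Hand Acu, and with their mean Prlr was at −0.07 for Hand Acu minus TBI and 0.33 for Hand Acu minus Sham. Prl, the gene of its ligand, was far below the floor, at 1.37, 0.71 and 2.21.

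Kl encodes klotho, the co-receptor for FGF23. It lay below the floor on every array, at 6.98 on Sham, 6.72 on TBI and 6.34 on Hand Acu, again lowest on Hand Acu. Hand Acu minus Sham was −0.64 (1.56-fold lower), where probe sets of like signal had an SD of 0.40. It is therefore left out of the counts.

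Aqp1, the water channel of the fluid-facing membrane of the choroid plexus, did not share the order of the others. It read 7.45 on Sham, 7.62 on TBI and 7.68 on Hand Acu, all close to the floor. Its differences of 0.18, 0.06 and 0.24 for TBI minus Sham, Hand Acu minus TBI and Hand Acu minus Sham were each smaller than the SD of probe sets of like signal (0.30, 0.28 and 0.31). The second Aqp1 probe set, below the floor, read 7.18, 7.04 and 7.30.

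Foxj1 is the transcription factor that switches on genes of motile cilia. It read 7.82 on Sham, 8.31 on TBI and 8.39 on Hand Acu, with Sham apart from the other two. TBI minus Sham was 0.49 (1.40-fold higher, SD 0.28) and Hand Acu minus Sham 0.56 (1.48-fold higher, SD 0.29), which ranked 153rd and 107th from the highest among 9241 genes. Hand Acu minus TBI was 0.08.

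Dynlrb2, a light chain of dynein of the roadblock family that is found in ciliated cells, read 8.76 on Sham, 9.34 on TBI and 9.10 on Hand Acu. Sham was again the lowest, and TBI the highest. TBI minus Sham was 0.58 (1.49-fold higher, SD 0.22), 85th from the highest among 9241 genes, and Hand Acu minus Sham 0.33 (1.26-fold higher, SD 0.24). Its paralog Dynlrb1, a light chain of cytoplasmic dynein used in all cells, read 12.50, 12.54 and 12.56, a range of 0.07.

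**Figure D2:**
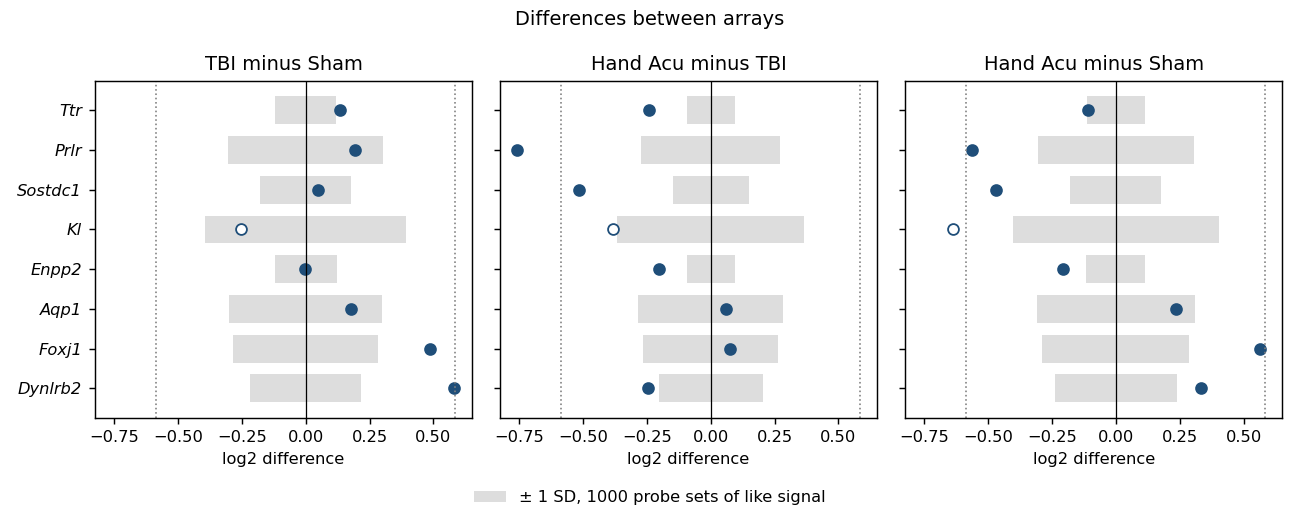
Log2 differences (horizontal axis) of the 8 genes in the 3 comparisons; filled points lie above the floor, the open point (Kl) below, grey bars are ± 1 SD of that difference over the 1000 probe sets nearest in signal, and dotted lines mark 1.5-fold. In Hand Acu minus TBI only Prlr lies past 1.5-fold, at −0.76, with Sostdc1 next at −0.51, while Foxj1 and Dynlrb2 are the 2 highest of the 8 in TBI minus Sham, at 0.49 and 0.58.

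At 1.5-fold, 0 of the 7 genes above the floor were apart for TBI minus Sham (1.55% of all genes), 1 of 7 for Hand Acu minus TBI (Prlr, with 1.21% of all genes) and 0 of 7 for Hand Acu minus Sham (1.89%). Dynlrb2 in the first and Foxj1 and Prlr in the last comparison lay just inside the log2 limit of 0.58. With a lower limit of 0.32 on the log2 difference these counts were 2, 2 and 4, where 10.1%, 8.16% and 11% of all genes lay past it. The median of the 5 choroid plexus genes was 0.13, −0.24 and −0.21 in the 3 comparisons. Quantile normalization gave 0.055 in the first and −0.16 in the second. The first was 0.047 with the higher floor, the mean of a gene's probe sets or the second brightest one. The last was −0.11 with that mean or that probe set and −0.34 with no floor. The mean of the 2 ciliary genes was 0.53, −0.08 and 0.45.

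In the wider choroid plexus list Hand Acu was also the lowest array in median, with members in both directions. Its 18 genes above the floor had medians of 0.04 for TBI minus Sham, −0.16 for Hand Acu minus TBI and −0.14 for Hand Acu minus Sham, against values of 0.004, −0.002 and 0.004 over all genes. For Hand Acu minus TBI 11 of 18 were lower (50.7% of all genes), and 8 of 18 were lowest on Hand Acu (32%). Slco1a5, an organic anion transporter, had the widest range, at 8.35 on Sham, 8.72 on TBI and 7.81 on Hand Acu (Hand Acu minus TBI −0.91, 1.88-fold lower). Folr1 read 8.70, 8.56 and 8.27, and Msx1, a homeobox factor, 8.89, 9.02 and 8.61, both lowest on Hand Acu. Calml4, a calmodulin-like gene, differed in order, at 7.18, 7.87 and 7.61, with Sham lowest and a TBI minus Sham difference of 0.69. Otx2 stayed within a range of 0.10, at 8.17, 8.20 and 8.27. For Hand Acu minus Sham the list's median was −0.006 with the higher floor of 9.25.

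Further genes of motile cilia were higher on TBI than on Sham in 7 of 11 (51% of all genes), with a median of 0.10. Above the higher floor of 9.25 only Tppp3 was left, at 0.26. None passed 1.5-fold, and 5 of 11 were lowest on Sham (36.3% of all genes) while 6 of 11 were highest on TBI (33.4%). Mlf1 read 7.78 on Sham, 8.30 on TBI and 7.94 on Hand Acu, and Tmem212 7.67, 8.19 and 7.75, so that for both Sham and Hand Acu were close and TBI stood higher by 0.52 over Sham. Cfap126, a cilia-associated protein, read 7.69, 7.94 and 7.45, with Hand Acu lowest. Drc3, a subunit of the nexin-dynein regulatory complex, read 7.75, 7.69 and 8.03, with Hand Acu highest. For Hand Acu minus Sham the median was 0.10, with 8 of 11 higher (51%), and for Hand Acu minus TBI −0.16, with 7 of 11 lower (50.7%). Hand Acu was the highest array, as it was for Foxj1, in 4 of these 11 genes (32.3% of all genes), and only 1 of the 4, Rsph9, a radial spoke gene at 8.72, 8.79 and 8.81, also had Sham lowest.

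**Figure D3:**
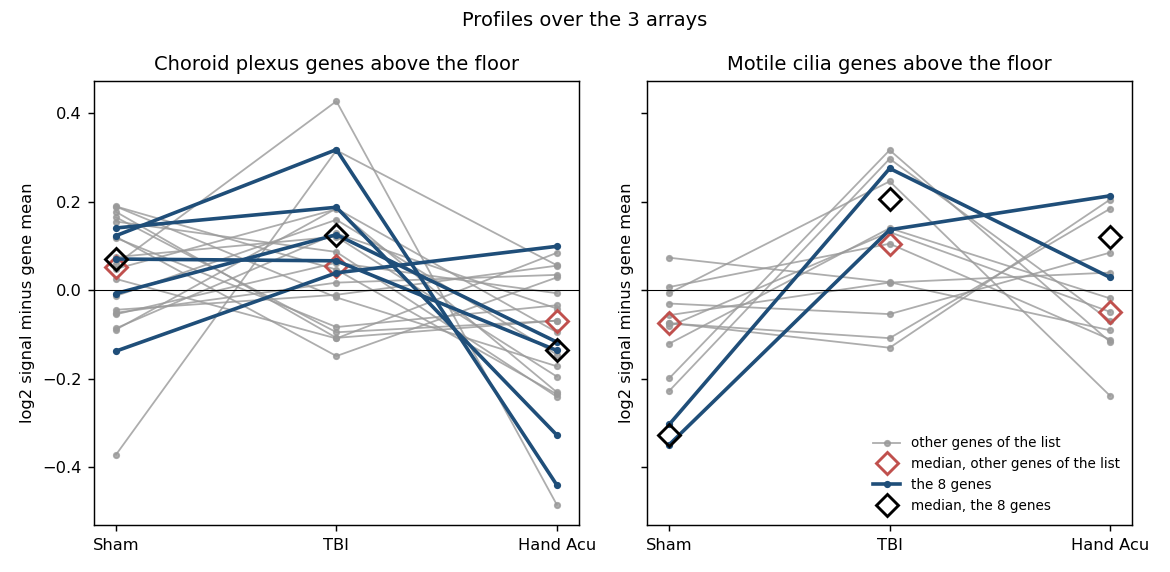
Log2 signal minus the gene's own mean (vertical axis) on the 3 arrays for choroid plexus genes (left: 5 of the 8 genes in blue, 18 others in grey) and motile cilia genes (right: 2 in blue, 11 others in grey), all above the floor; diamonds are medians. On the left the medians are lowest on Hand Acu, at −0.14 and −0.07, and on the right they are lowest on Sham, at −0.33 and −0.07.

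Regulators and transport machinery of cilia showed small differences in median. The 5 regulators above the floor had medians of −0.03, 0.02 and −0.02 for TBI minus Sham, Hand Acu minus TBI and Hand Acu minus Sham. Rfx3, an RFX factor of ciliated cells, read 9.48, 9.58 and 9.60 on Sham, TBI and Hand Acu, and Rfx4, which is also expressed in astrocytes, 9.83, 9.97 and 10.17. Of 21 genes of intraflagellar transport, the system that carries cargo along cilia, 10 were higher on TBI than on Sham, with a median of −0.04, and 11 were higher on Hand Acu than on Sham (51% of all genes in both), with a median of 0.003. Ift140, of the retrograde complex, read 8.57, 8.82 and 9.16, and Ift80 read 8.90, 9.34 and 9.36, so both had Sham lowest, whereas Ift122 had Sham highest at 8.77 against 8.49 and 8.62. The 9 genes of cytoplasmic dynein had medians of −0.02, 0.03 and 0.05. Dync1li1, a light intermediate chain, read 9.62, 10.09 and 9.83, an order like that of Dynlrb2, but its other probe set above the floor read 8.53, 8.49 and 8.44.

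Partners of the 8 genes were described by the same measure. In thyroid hormone and retinol transport, the task of transthyretin, 6 genes were above the floor, with medians of 0.14, 0.09 and 0.03. Rbp4, the plasma retinol carrier that binds transthyretin, read 9.45, 9.79 and 9.39, highest on TBI as Ttr was. Crym, a thyroid hormone-binding protein of the cytosol, read 10.47, 10.60 and 10.72. In prolactin signalling, 4 of 4 genes above the floor were lower on Hand Acu than on TBI (50.7% of all genes), with a median of −0.20. Of these, Jak2 differed by only −0.0024 and Ptpn11 by −0.10. Stat3, a transcription factor of cytokine receptors, read 8.25, 7.83 and 7.53 (1.64-fold lower on Hand Acu than on Sham), but its other probe set above the floor read 7.62, 7.60 and 7.67. Stat5a, a transcription factor that the prolactin receptor activates, read 7.45, 7.80 and 7.36. In klotho and FGF signalling, 3 genes were above the floor, with medians of 0.18, −0.10 and −0.05. Among them Fgfr1, the receptor with which klotho binds FGF23, read 10.12, 10.01 and 10.06. Fgfr3 read 10.91, 11.13 and 10.72, and its other probe set read 8.33, 8.02 and 8.14, with TBI lowest instead of highest.

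For lysophosphatidic acid, 5 genes were above the floor, with medians of 0.09, 0.07 and 0.005. Plpp3, a phosphatase that degrades this lipid, read 13.04, 13.29 and 13.39, but 2 further probe sets were lower on Hand Acu than on Sham, by −0.18 and −0.91. In BMP and Wnt signalling, the target of Sostdc1, 6 genes had medians of −0.05, −0.04 and −0.17. Lrp6, a Wnt co-receptor, read 7.78, 7.77 and 7.38, and Bmp4 8.20, 8.14 and 7.90, both lowest on Hand Acu as Sostdc1 was. Of the other aquaporins 3 were above the floor, with medians of −0.15, 0.12 and 0.03, and Aqp4, the water channel of astrocyte end-feet and ependyma, stayed within 0.10, at 13.53, 13.63 and 13.56.

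Markers of neighbouring cells differed between the same arrays. Microglia markers above the floor were higher on TBI than on Sham in 6 of 7 (51% of all genes) and summed to 4363 signal units on Sham, 5036 on TBI and 4354 on Hand Acu. Among them P2ry12 read 9.92, 10.43 and 9.98, but its other probe set above the floor read 8.87, 8.85 and 8.96. All 3 blood genes were higher on TBI than on Sham (51% of all genes) and lower on Hand Acu than on TBI (50.7%), with sums of 11718, 14763 and 11251. Meningeal markers were lower on Hand Acu than on TBI in 7 of 10 (50.7% of all genes), with sums of 21730, 23032 and 20768, and astrocyte markers in 7 of 10, with sums of 68141, 72704 and 67471. Each of these 4 sums was highest on TBI and lowest on Hand Acu, the order of Ttr, but a sum mostly follows its brightest genes. Counted by gene, 2 of 3 blood genes were lowest on Sham (36.3% of all genes) and 1 on Hand Acu (32%). Of the microglia markers 3 of 7 were lowest on Sham and 3 on Hand Acu. Lowest on Hand Acu were 5 of 10 meningeal and 4 of 10 astrocyte markers. Cerebellar markers were lower on TBI than on Sham in 9 of 9 (49% of all genes), with sums of 20678, 15150 and 14095. Unlike Foxj1 and Dynlrb2, 8 of the 9 were highest on Sham (3168 of all 9241 genes), and 1 was highest on Hand Acu. All 4 mural cell markers were lower on TBI than on Sham (49% of all genes), with sums of 2061, 1721 and 1644. Among them Abcc9 differed by only −0.013, and its other probe set above the floor was higher on TBI, at 7.63, 7.85 and 7.70. Of the endothelial markers 7 of 10 were lower on TBI than on Sham (49%), with sums of 7059, 6168 and 6299. Neuron markers summed to 57709, 60140 and 59764, myelin markers to 64950, 66972 and 67248, and brainstem neuron genes to 7095, 8568 and 7950. Each of these sums was lowest on Sham, as Foxj1 and Dynlrb2 were. The neuron and brainstem neuron sums were also highest on TBI, as Dynlrb2 was. By gene, 6 of 8 neuron markers were lowest on Sham (36.3% of all genes) and 2 were highest there. Of the 7 myelin markers 3 were lowest on Sham and 3 on TBI, with a TBI minus Sham median of 0.002. All 6 brainstem neuron genes above the floor were higher on TBI than on Sham (51% of all genes), and 5 of 6 were lowest on Sham (36.3%). No marker of these lists was at 0, since every deposited signal is above it. The part of these cells, and of the 3' to 5' ratios, in the differences of the 8 genes was not tested.

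The genes whose 3-array profiles were nearest to those of the 8 genes were named by Euclidean distance between centred log2 profiles, for the 5 genes with a range of at least 0.4. With 3 arrays such likeness is easily met: 53 genes lay within 0.1 of Dynlrb2, 65 of Foxj1, 49 of Sostdc1, 36 of Kl and 12 of Prlr. Nearest to Dynlrb2 were Nsmce3 (distance 0.01), Dnaaf5 (0.01), an assembly factor of axonemal dynein, and Pdk4 (0.03). Nearest to Foxj1 were Nr4a3 (0.008), Tmem129 (0.02) and Cul4a (0.03). Pex16, Dixdc1 and Ttc28 were nearest to Sostdc1, at 0.02 to 0.03, and Urb1, Grifin and Fn1, the fibronectin gene, to Prlr, at 0.009 to 0.03. For Kl, which was below the floor, they were Slc28a2, Rora and Ints7, at 0.02 to 0.03.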

How the data were processed

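The deposited table holds log2 values for 31099 probe sets on 3 arrays; the log2 signals were made by the authors with MAS5 (per the submitters' processing notes, no version given), and base and scaling follow from the values themselves: back on the linear scale, each array's mean without its top and bottom 2% was 500.0. Detection calls and scan files were not used here. Probe sets were named by the platform annotation of 2016: 20826 had 1 symbol, 436 several and 9780 none. List symbols not found there were looked up as synonyms in the RefSeq gene table.

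Groups were taken from the treatment labels. Differences are of single arrays, as deposited, with no test. The 8 members, the 11 pathway lists and 10 cell type lists were chosen with earlier results of these data known. Genes named were all 8 members, up to 4 genes of a pathway list and 2 of a cell list with the widest range, and the genes of a fixed set reported here (Otx2, Folr1, Kcnj13, Dynlrb1, Fgfr1, Lpar1, Prl, Aqp4, Rfx3); of the cell lists few are named. The 3 genes nearest in profile to a member with a range of at least 0.4 were also named. So were Tppp3, Rsph9, Slc6a5, Dbh and Abcc9, after their values were seen. Settings varied were scaling (quantile, median), an offset of 50, the floor (none, 9.25), the probe set used and the fold threshold. Python 3.11.15, numpy 2.4.6, pandas 2.3.3 and matplotlib 3.10.9 were used, and the counting was tested on simulated data.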

Additional observations from a re-analysis of the deposited data

How the results depend on the processing

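No paired analysis was possible because each group has 1 array. A value is said to move if it shifts by 0.1 in log2, and a count if it shifts by over 1.5 times. Under 104 of 129 settings of the summary values neither happened. Some of these settings could not change their value. Foxj1 and Dynlrb2 have 1 probe set each and lie above the floor. Dropping the floor or choosing probe sets by another rule therefore had to return the same ciliary mean. The 104 is thus not a measure of stability. For TBI minus Sham, the count past 1.5-fold (0) was 1 with quantile normalization, 1 with the second brightest probe set and 2 at the lower threshold (log2 0.32), and the median of other motile cilia genes was 0.26 under the higher floor, which left Tppp3 alone, and 0.21 for the second brightest probe set. For Hand Acu minus TBI, the choroid plexus median (−0.24) was −0.36 without Ttr and −0.38 without Enpp2 or without Aqp1; the ciliary mean (−0.08) was −0.25 for Dynlrb2 alone and 0.077 for Foxj1 alone; the count (1) was 0 at 2-fold, under the higher floor, for the mean of all probe sets and for the second brightest one, and 2 at the lower threshold; other motile cilia genes had 0.023 with the second brightest probe set. Prlr reversed to 0.34 with its second brightest probe set. For Hand Acu minus Sham, the choroid plexus median (−0.21) was −0.34 with no floor, without Ttr and without Aqp1; the ciliary mean (0.45) was 0.33 for Dynlrb2 alone and 0.56 for Foxj1 alone; the count (0) was 1 with no floor (Kl) and with the second brightest probe set, and 4 at the lower threshold; other choroid plexus genes had −0.0060 with the higher floor. That floor left neither ciliary gene, so it gave no ciliary mean. The changes with a floor, a probe set or a left-out gene follow from which values enter; the cause of the change with quantile normalization was not tested. Signal near background limits Prlr, Kl and Aqp1 most, and Foxj1 next.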
